A study of Mus musculus with 6 samples.

Results

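The genes described here are 8 markers of the nerve and its glia in the neurovascular bundle that enters the proximal end of the mouse incisor, namely *Sox10*, *Foxd3*, *Mbp*, *S100b*, *Nrg1*, *Erbb3*, *Ngfr* and *Ncam1*. They were taken by gene name from a table of 19270 genes, which holds 7 of the 8 and has no row for *Foxd3*. Bulk RNA-seq was performed on mice aged 1 month, collected 4 days post-tamoxifen, with 3 controls and 3 *Arid1b* mutants. According to the methods, mesenchymal tissue was dissected from the proximal incisor. The mutant genotype was *Gli1-CreER;Arid1bfl/fl*, and its Cre recombinase is active after tamoxifen in *Gli1*-expressing cells of the incisor mesenchyme and epithelium. The controls are labeled as wild type, whereas the methods describe tamoxifen-injected *Arid1b* fl/fl mice, and both groups received tamoxifen. The CreER sequence is inserted at the *Gli1* locus, so the mutants also carry an altered *Gli1* allele.

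The neurovascular bundle holds sensory axons, the Schwann cells that wrap them, and blood vessels, and it is the niche around which GLI1+ mesenchymal stem cells lie. Schwann cells descend from the neural crest under the transcription factor SOX10. They receive axonal neuregulin through a receptor made of ERBB3 and ERBB2, and then either form myelin around a single axon or enclose several thin axons without myelin. None of the 8 genes is made by glia alone in every tissue. *Erbb3* is also expressed in epithelia, and *Ngfr* and *Ncam1* are also expressed by mesenchymal cells of the tooth.

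The table gives the authors' mean of normalized read values for each group, and values per gene and mouse were not analysed here. The group means therefore carry no SD, no test across mice was run, and a ratio of means cannot be set against the spread between mice. The libraries held an estimated 37123643 to 49594469 reads on these genes, and read numbers per gene were estimated from the lowest value of each group. Counting intervals below are exact 95% intervals of the ratio of these estimated reads. They describe counting error only and are narrower than intervals that include differences between mice. In bulk tissue, fewer cells of a type and less RNA per cell cannot be told apart.

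RefSeq start-site windows of GRCm38.p6, from 250 bases before to 50 bases after the annotated start, were found for 3 of the 8 genes. Those of *S100b* and *Ngfr*, the 2 of these genes that were measured, are shown to give the sequence at the start of a gene that was past 1.5-fold between the groups and of one that was not. They are written 5′ to 3′ on the strand of the gene, and capitals mark matches to the GC box GGGCGG on either strand. The windows lie at chr10:76253586-76253885 for *S100b* and chr11:95587649-95587948 for *Ngfr*.
S100b: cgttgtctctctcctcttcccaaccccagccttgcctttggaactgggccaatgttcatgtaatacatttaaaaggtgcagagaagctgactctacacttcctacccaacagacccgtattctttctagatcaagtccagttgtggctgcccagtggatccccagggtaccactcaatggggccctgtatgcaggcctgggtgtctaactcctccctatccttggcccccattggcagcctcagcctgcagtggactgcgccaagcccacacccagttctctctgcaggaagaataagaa
Ngfr: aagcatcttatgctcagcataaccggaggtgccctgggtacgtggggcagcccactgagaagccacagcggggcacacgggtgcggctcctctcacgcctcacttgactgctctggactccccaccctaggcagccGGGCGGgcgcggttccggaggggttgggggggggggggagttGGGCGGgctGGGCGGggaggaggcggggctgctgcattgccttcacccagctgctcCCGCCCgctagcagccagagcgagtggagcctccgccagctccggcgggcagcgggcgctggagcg

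The *S100b* window had a GC content of 53.7% with 3 CpG dinucleotides, close to the median of 52.7% over 32851 such windows. The *Ngfr* window had a GC content of 71.7% with 23 CpG dinucleotides, above 92.6% of all windows in GC content. It held 4 GC boxes, and 35.7% of all windows held at least 1. The SOX core motifs ACAAT and ACAAAG, searched on both strands, occurred in 31.0% and 18.7% of all windows and in neither of these, and the TATA box TATAAA, found in 13.6% of all windows, was in neither. A match or its absence describes these letters in this window only.

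Positions are those of GENCODE vM21 (GRCm38, which is mm10), and all 8 genes are protein-coding. *Sox10* lies on chromosome 15 (79154908 to 79165240, minus strand) and *Foxd3* on chromosome 4 (99656299 to 99658622, plus strand). *Mbp* lies on chromosome 18 (82475146 to 82585637, plus strand) and *S100b* on chromosome 10 (76253853 to 76261159, plus strand). *Nrg1* spans 1069 kb of chromosome 8 (31814551 to 32884029, minus strand), and *Erbb3* lies on chromosome 10 (128567523 to 128589652, minus strand). *Ngfr* lies on chromosome 11 (95568818 to 95587735, minus strand) and *Ncam1* on chromosome 9 (49502136 to 49798925, minus strand). *Nrg1* and *Ncam1* share 482 and 417 bases of exon with the opposite-strand transcripts *Gm26578* and *Gm11149*, which have no row in the table. The sources used here do not say whether reads were counted by strand, so reads of these partners could be included.

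Of the 7 measured genes, 6 had a higher mutant than control mean, and the mean of 1, *Sox10*, was lower. Over all genes of the table, 50.5% had a higher mutant than control mean. *Nrg1* and *S100b* were over 1.5-fold higher, which was 2 of 7, and none was over 1.5-fold lower. Over all genes of the table, 7.37% were over 1.5-fold higher and 5.80% over 1.5-fold lower. Such ratios were more frequent at low levels, with 17.9% of genes with a mean under 1 over 1.5-fold higher, 8.75% of those with a mean of 1 to 10 and 2.15% of those with a mean of at least 10. *Nrg1* had a mean over both groups of 0.411 and *S100b* of 1.503, so that the first falls in the band where 17.9% were past this ratio and the second in the band with 8.75%. The 3 members with a mean of at least 10 were *Mbp*, *Ngfr* and *Ncam1*, and none of them was past it. The median log2 ratio of the 7 genes was 0.39, and over all genes it was 0.0022.

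**Figure D1:**
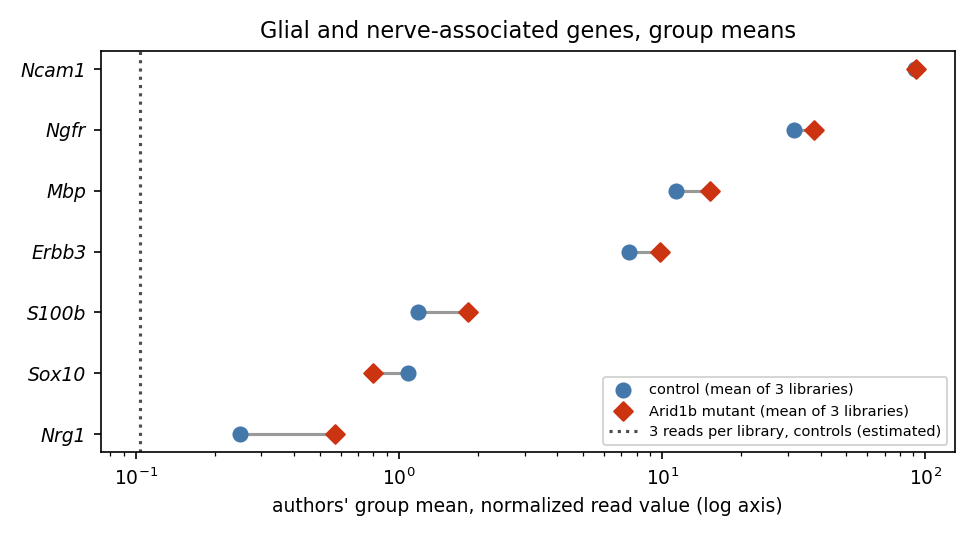
Authors' group means of the 7 measured genes on a log axis of normalized read values, with circles for the controls and diamonds for the *Arid1b* mutants, each the mean of 3 libraries without an error. *Sox10* is the gene whose mutant mean (0.798) lies to the left of its control mean (1.09), and the dotted line marks the estimated level of 3 reads per library in the controls (0.103).

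*Sox10*, the SoxE factor that specifies the Schwann cell lineage and is needed to maintain it, had a mean of 0.798 in mutants and 1.09 in controls. The ratio was 0.735, a log2 ratio of -0.44, which did not reach a 1.5-fold difference. These means correspond to about 101 reads over the 3 mutant libraries and 123 over the 3 control libraries, and the counting interval of the ratio was 0.557 to 0.961. Among genes with a mean under 1, 18.4% were over 1.5-fold lower in the mutants. *Sox10* thus had a lower mean than in the controls, in a band where larger ratios were frequent. Its mean over both groups, 0.942, lies near the upper edge of this band. The share over 1.5-fold lower among genes with a mean of 1 to 10 was not computed. *Foxd3*, a forkhead factor of neural crest and glial precursors, had no row in the table, and its level is not known from these values.

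The other SoxE and neural crest factors were examined beside *Sox10*. Of 7 listed genes, 6 were in the table, 1 had a higher mean and 5 a lower mean in the mutants, and the median log2 ratio was -0.19. *Sox9*, a SoxE factor of the mesenchyme and the gene of the list with the highest mean over both groups, had means of 251.2 in mutants and 299.2 in controls, a log2 ratio of -0.25. *Sox8*, the third SoxE gene, had a log2 ratio of -0.28. *Pax3*, a paired-box factor of the neural crest, was the only listed gene over 1.5-fold higher, at 0.508 and 0.217, which is about 63 and 22 reads.

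*Mbp*, which encodes the basic protein of the cytoplasmic side of compact myelin, had a mean of 15.2 in mutants and 11.3 in controls. The ratio was 1.34 (log2 ratio 0.43), with a counting interval of 1.253 to 1.443 from about 1974 and 1310 reads. The locus has 16 annotated transcripts in 13 blocks of exon, among them the longer Golli transcripts, which are also made outside myelinating cells, and the group means do not separate them. *S100b*, a calcium-binding protein abundant in Schwann cells, had a mean of 1.83 in mutants and 1.18 in controls. The ratio was 1.55 (log2 ratio 0.63), with a counting interval of 1.255 to 1.941 from about 234 and 134 reads. Its 3 exons share no base with those of *Dip2a*, which overlaps its locus on the opposite strand. *S100b* was thus just past 1.5-fold and *Mbp* below it, and the counting interval of *S100b* extends to either side of 1.5.

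The other myelin genes were split in direction. Of 15 listed myelin genes and regulators, 14 were in the table, 7 had a higher mean and 7 a lower mean in the mutants, and the median log2 ratio was 0.00082. *Pmp22*, which is also expressed in many other cell types, had the highest means of the list, with 113.4 in mutants and 117.8 in controls.

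In this list 2 genes were over 1.5-fold higher and 1 was over 1.5-fold lower. *Ncmap*, a protein of noncompact myelin, had means of 6.25 in mutants and 4.06 in controls, and *Pou3f1*, a factor of promyelinating Schwann cells, had 0.298 and 0.189 from about 36 and 19 reads, with a counting interval that contains 1 (0.944 to 3.12). *Gldn* encodes gliomedin, which Schwann cells present at nodes of Ranvier, and it had means of 26.1 in mutants and 67.2 in controls, a log2 ratio of -1.37. It was the only gene of the list with a mean of at least 10 that was past 1.5-fold. *Egr2*, the factor that drives myelin gene expression, had means of 1.91 and 1.74 with a counting interval of the ratio of 0.907 to 1.33, which contains 1.

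All 9 other Schwann cell markers were in the table, with 3 higher and 6 lower in the mutants, a median log2 ratio of -0.09, and 1 over 1.5-fold higher. *Cdh19*, a cadherin of the Schwann cell lineage, with the highest mean of the list, had means of 6.88 in mutants and 9.96 in controls, a ratio of 0.691 with a counting interval of 0.632 to 0.754. *Scn7a*, a sodium channel gene of nonmyelinating Schwann cells, had means of 2.54 and 3.58, with an interval of 0.611 to 0.821. *Fabp7*, a fatty acid binding protein of immature glia, had means of 3.829 and 5.002, with an interval of 0.677 to 0.865. *Cdh19*, *Scn7a*, *Fabp7* and *Mia* were lower in the mutants, as was *Sox10*, whereas *Sox2* was higher at 2.68 against 1.60. *Gfra3*, *Gfap*, *L1cam* and *Kcna1* had ratios of 1.44, 1.07, 0.959 and 0.938, each with a counting interval that contains 1. *Sox2* is a factor of immature Schwann cells and also of the epithelial stem cells of the incisor.

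**Figure D2:**
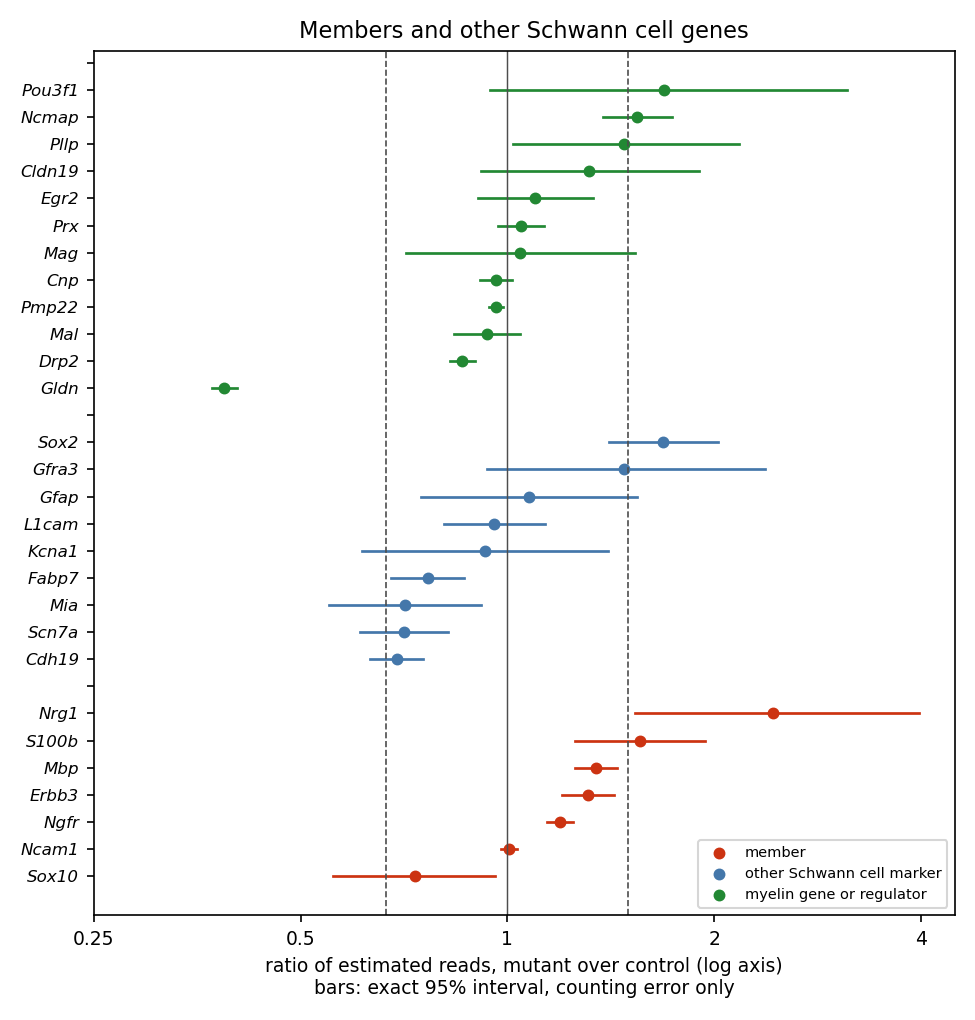
Ratio of estimated reads in mutants over controls (log axis) for the measured members, the other Schwann cell markers and 12 of the myelin genes, with exact 95% intervals that cover counting error only. *Sox10* lies to the left of 1 with *Cdh19*, *Scn7a*, *Fabp7* and *Mia*, and *Sox2* lies to the right. The intervals of *Gfra3*, *Gfap*, *L1cam* and *Kcna1* contain 1. Among the myelin genes, *Gldn* lies apart at the left. *Ncmap*, *Pllp*, *Pou3f1* and *Cldn19* lie to the right at 1.54, 1.48, 1.69 and 1.31, and the intervals of the last pair contain 1. The other myelin genes shown lie between 0.860 (*Drp2*) and 1.10 (*Egr2*). Dashed lines mark 1.5-fold in either direction.

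*Nrg1* encodes neuregulin 1, the ligand that axons and other cells present to Schwann cells. It had means of 0.573 in mutants and 0.249 in controls. The ratio was 2.30 (log2 ratio 1.20) and was the highest of the members, from about 71 reads over the 3 mutant libraries and 26 over the 3 control libraries. The estimated reads give a ratio of 2.44 with a wide counting interval of 1.54 to 3.98, and how these few reads were spread over the mice is not known. *Erbb3*, the neuregulin receptor of Schwann cells, had means of 9.83 in mutants and 7.51 in controls. Its ratio was 1.31 (log2 ratio 0.39), with a counting interval of 1.20 to 1.43, and it did not reach 1.5-fold.

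Among 12 other ligands and receptors of the ErbB family, 11 were in the table, with 9 higher and 2 lower in the mutants and a median log2 ratio of 0.17. *Erbb2*, the co-receptor of ERBB3, with the highest mean among them, had means of 51.6 in mutants and 45.9 in controls, a log2 ratio of 0.17. *Egfr*, the receptor of EGF and related ligands and strongly expressed in epithelia, had means of 24.1 and 12.9, a ratio of 1.87. It was the only gene of this list with a mean of at least 10 that was past 1.5-fold. *Nrg3*, another neuregulin, had means of 0.205 in mutants and 0.571 in controls, opposite in direction to *Nrg1* and also at few reads, about 24 and 63.

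Markers of dental epithelium differed between the groups in the direction of *Erbb3* and *Egfr*. The 11 listed epithelial genes had log2 ratios from -0.31 to 3.87, and their means summed to 10401 (mutants) and 1647 (controls). Of these 11, 10 were over 1.5-fold higher in the mutants, each with a mean of at least 10. Among all genes with such a mean, 2.15% were over 1.5-fold higher. The exception, *Klk4*, had means of 1.21 and 1.49, the control means of the other 10 ranged from 24.7 to 617.4, and the epithelial adhesion molecule gene *Epcam* had means of 42.5 in mutants and 24.7 in controls. The enamel matrix genes *Amelx*, *Enam* and *Ambn* had mutant means of 3946, 1983 and 3360 and control means of 361.9, 135.8 and 617.4. The basal keratin genes *Krt5* and *Krt14* had log2 ratios of 1.22 and 1.01, and *Krt17*, *Cdh1* and *Trp63* were also over 1.5-fold higher. The methods describe the dissected tissue as mesenchymal, and how much epithelium each sample held was not tested. The part of the epithelial difference in the values of *Erbb3*, *Egfr*, *Ngfr*, *Nrg1*, *S100b* and *Sox2* was not tested.

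*Ngfr* encodes p75, a receptor for neurotrophins that marks immature and nonmyelinating Schwann cells. It had means of 37.7 in mutants and 31.6 in controls, a ratio of 1.19 (log2 ratio 0.25) with a counting interval of 1.143 to 1.246. *Ncam1*, the neural cell adhesion molecule of axons and nonmyelinating Schwann cells, had means of 92.1 in mutants and 91.5 in controls. Its ratio was 1.01, with a counting interval of 0.980 to 1.03 from about 11973 and 10617 reads. Of the 7 genes, *Ncam1* was the one whose group means differed least, and the only one whose counting interval contains 1.

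Of 14 neurotrophins, GDNF family ligands and their receptors, 10 were higher and 4 lower in the mutants, with a median log2 ratio of 0.19. *Sort1*, a co-receptor of p75, with the highest mean among them, had means of 154.8 in mutants and 145.6 in controls. *Ntf5*, which encodes neurotrophin 4, was the one gene over 1.5-fold higher, at 5.21 and 2.89, and *Gdnf* was the one over 1.5-fold lower, at 1.45 and 2.41. The 8 other neural adhesion genes and polysialyltransferases had a median log2 ratio of -0.21. *Nfasc*, the neurofascin gene, with the highest mean among them, had means of 38.6 and 51.8, and *Ncam2* had 1.98 and 3.51. *St8sia2*, a polysialyltransferase that modifies NCAM, had 3.05 and 1.68.

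**Figure D3:**
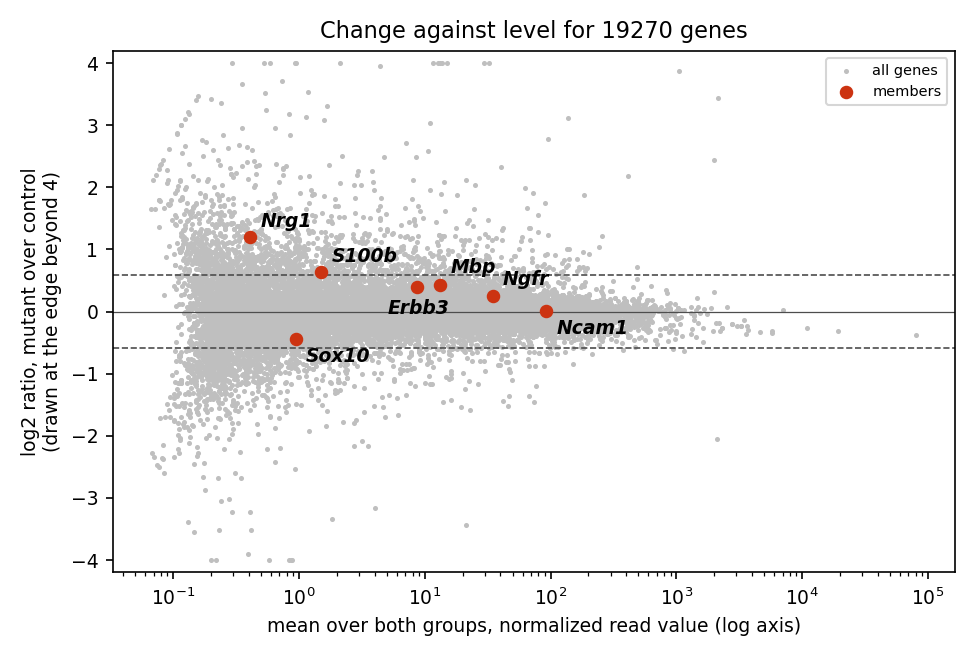
Log2 ratio of mutant over control means against the mean over both groups (log axis, normalized read value) for all 19270 genes in grey and the 7 measured members in red, with dashed lines at 1.5-fold. *Nrg1* and *S100b* lie above the upper line at means of 0.411 and 1.503, where grey points spread widely, and *Mbp*, *Ngfr* and *Ncam1* lie between the lines at means over 10.

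Levels of different genes were compared per kb of annotated exon. In the controls, *Ncam1* had 10.6 and *Ngfr* 9.17 normalized units per kb, above *Mbp* at 1.34, *Erbb3* at 1.248, *S100b* at 0.795, *Sox10* at 0.356 and *Nrg1* at 0.0241. In the mutants, *Ngfr* had 10.9 and *Ncam1* 10.6 per kb, *Mbp* 1.80, *Erbb3* 1.63, *S100b* 1.23, *Sox10* 0.262 and *Nrg1* 0.0553. The first pair thus changed places between the groups, and the other 5 genes kept their order. With the longest transcript in place of all exons, *Ncam1* was above *Ngfr* in both groups, at 13.9 and 9.17 per kb in the controls. The control levels of *Mbp* and *Nrg1* were then 2.36 and 0.0461 per kb, so these depend on the transcripts that are counted, and their places in the order were the same. The spread of these levels over mice is not known, so which neighbors in this order differ was not tested.

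The other cell types of the bundle were examined with lists of their markers. All 9 endothelial markers had log2 ratios between -0.16 and 0.27, with a median of 0.05, and *Cdh5*, the endothelial cadherin, with the highest mean among them, had means of 94.4 in mutants and 95.2 in controls. Of 8 pericyte and smooth muscle markers 2 were higher and 6 lower, with a median of -0.22. *Rgs5*, a pericyte gene with the highest mean among them, had means of 340.1 and 411.0, and *Kcnj8*, a potassium channel gene of pericytes, had 11.03 and 21.47 and was the only one past 1.5-fold.

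Neuronal cell bodies lie outside the incisor, and 5 of 15 listed neuron genes (*Nefh*, *Prph*, *Snap25*, *Dbh* and *Elavl3*) had no row in the table. Of the 10 others, 6 were over 1.5-fold higher and 1 was over 1.5-fold lower in the mutants, with a median log2 ratio of 0.77, which was 0.20 with a pseudocount of 1. Of these 6, *Nefl*, *Nefm* and *Scn10a* had 4 to 15 control reads and 20 to 34 mutant reads, at means under 1 where 17.9% of all genes were past this ratio. *Tubb3*, a tubulin of axons with the highest mean among them, had means of 42.0 in mutants and 32.0 in controls, and *Tac1*, the precursor of substance P, had 34.9 and 16.6. These were the only listed neuron genes with a mean of at least 10. Which cells the reads of this list came from, axons or other cells of the tissue, was not tested. *Calca*, the precursor of CGRP in sensory neurons, had means of 1.70 and 0.580, whereas *Scn9a*, a sodium channel gene of sensory neurons, had 0.771 and 2.07. *Shh*, a ligand released in this niche by sensory nerves and also by the incisor epithelium, had means of 174.2 and 103.3. These values measure RNA in the tissue and not the released ligand.

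Melanocytes share *Sox10* and *Erbb3* with glia, and 3 of 8 melanocyte markers (*Tyr*, *Tyrp1* and *Mlana*) had no row in the table. Of the 5 others, 3 were higher and 2 lower in the mutants. *Dct*, the only listed melanocyte gene over 1.5-fold higher, had means of 1.70 in mutants and 0.680 in controls. *Kit*, a receptor gene also expressed by other cells and the only one of the list with a mean of at least 10, had 140.0 and 207.0. Of the 6 skeletal muscle markers, a tissue that also expresses *Ncam1*, 2 were higher and 4 lower, and *Acta1*, skeletal muscle actin, had means of 1.12 and 2.50, whereas *Myh4*, a fast myosin heavy chain gene, had 2.06 and 0.552 with a counting interval of the ratio of 2.92 to 5.21. The median of the muscle list was -0.31 on the log2 scale, and -0.09 with a pseudocount of 1. Of the 6 macrophage markers 5 were higher and 1 lower, with log2 ratios from -0.08 to 0.40 and a median of 0.16. The lower one, *Mrc1*, had means of 117.4 and 124.3, and *Csf1r*, a receptor of macrophages, had 97.3 and 84.8. Of the 7 other S100 genes 4 were higher and 3 lower, with a median of 0.12, and *S100a11* had 115.7 and 102.1. Of the 7 mesenchymal markers 3 were higher and 4 lower, with a median of -0.15, and *Col1a1* had 17127 and 21211. The part of these cell types in the values of the 7 measured genes was not tested.

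**Figure D4:**
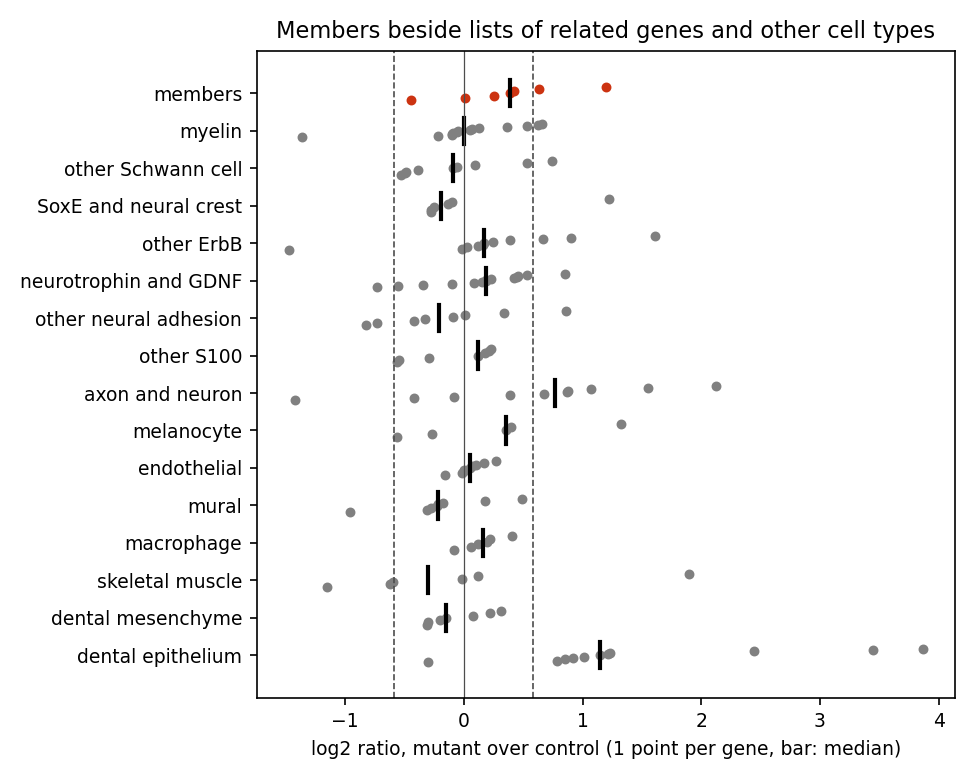
Log2 ratio of mutant over control means for each gene of the members and of 15 lists of related genes and cell types, with a black bar at each median and dashed lines at 1.5-fold. The members (median 0.39) lie to the right of the myelin genes (0.00082) and the other Schwann cell markers (-0.09), and the dental epithelium list (1.15) lies farthest to the right.

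The targeted gene *Arid1b* had means of 38.0 and 97.6 in mutants and controls, a ratio of 0.390. *Gli1*, at whose locus CreER is inserted, had means of 46.1 and 106.4, and the hedgehog receptor and target gene *Ptch1* had 732.1 and 726.2. Sex is not among the labels. *Ddx3y*, a Y-linked gene, had a mutant mean of 65.3, whereas its control mean of 0.0259 was the lowest of that group, and *Xist* had 813.8 and 3368. The Y-linked genes *Eif2s3y*, *Uty* and *Kdm5d* had mutant means of 25.3, 29.8 and 27.4. Their control means were under the estimated level of 3 reads per library. The groups thus differed in sex, and the sex of each mutant mouse is not known. This difference cannot be told apart from the genotype in the values of the glial genes.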

How the data were processed

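RNA-seq was performed on mesenchymal tissue dissected from the proximal incisor of 3 control and 3 *Arid1b* mutant mice. According to the methods, reads were trimmed, aligned to mm10 and compared in Partek Flow, and the submitters' processing notes name TopHat2 2.0.8. The read counter, annotation, normalization and strand setting are not given in the sources used here. The values used are a normalized signal, deposited as the authors' mean per group for 19270 genes and as a summary per library. Each group mean equals the arithmetic mean of its 3 libraries, as checked on the means over genes and on the minima. The upper quartile lay between 44.57 and 44.58 in every library. The lowest value of a library was taken as 1 added read, an inference from the values, and reads per library and per gene were estimated from it. The limit of 3 reads per library corresponds to 0.103 for controls and 0.0923 for mutants.

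The deposited p-values, FDR, ratios and fold changes of mutant against control, and the table filtered on them, belong to the authors' comparison and were not used. Ratios and log2 ratios were computed here from the group means without a pseudocount, and 1.5-fold was taken from the methods as the threshold. No test across mice could be fitted to 2 means per gene, so none was run in place of the limma test planned for values per library. Counting intervals are exact binomial (Clopper-Pearson) intervals of the share of mutant reads, turned into ratios. Exon lengths and positions are from GENCODE vM21, in which 18840 gene names matched 1 gene, and start-site windows are from RefSeq. Named genes were all 8 members, *Arid1b*, each list's most abundant gene, and list genes past 1.5-fold with a mean of at least 10. Some genes of the lists enter the counts and medians but are not reported here by name. Any further gene named was picked once its values were known. Members and lists were chosen with earlier results of these data known. Computation of ratios was tested on simulated data. Figures were drawn with matplotlib 3.10.9, and scipy 1.17.1, pandas 2.3.3 and numpy 2.4.6 were run under Python 3.11.15. Alternatives were other thresholds, a filter on low means, other scalings, a pseudocount of 1, subtraction of the lowest mean, the mean in place of the median, the median without *Nrg1*, and another exon length.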

Additional observations from a re-analysis of the deposited data

How the results depend on the processing

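No paired analysis was possible because the table holds 1 mean per group, and no library could be left out for the same reason. Of the 7 measured members, 2 were past 1.5-fold in either direction, and of all genes 13.2% were. The count was 5 at a threshold 25% above equality and 1 at 2-fold, as the thresholds imply, and 0 when a mean of 10 or more was required, where *Nrg1* and *S100b* are left out. It was also 0 with a pseudocount of 1, which shrinks ratios of low genes, so that the log2 ratios of *Nrg1*, *S100b* and *Sox10* became 0.33, 0.37 and -0.21. The median log2 ratio of the members, 0.39, was 0.25 with the same filter. It moved by less than 0.1 on the log2 scale without *Nrg1*, as a mean instead of a median, with the other scalings, with the pseudocount and with the lowest mean subtracted. The last of these and the removal of *Nrg1* were chosen after seeing the data. The median log2 ratio of all genes, subtracted in centring, was 0.0022, and the log2 ratio of the sums of the group means, subtracted for an equal sum, was -0.06. With the pseudocount, the neuron, melanocyte and muscle medians became 0.20, 0.066 and -0.092. Under the filter, the myelin median became -0.055 from 0.00082 and the melanocyte median -0.56 from 0.36, the latter on *Kit* alone. No member changed direction under any alternative run. A threshold, a filter or an equal pseudocount cannot change the direction of a ratio. The scalings shifted all log2 ratios by the same small amount, so this outcome says little about the members.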
